A study of Mus musculus with 17 samples.

Results

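Common myeloid progenitors (CMP) were compared with megakaryocyte-erythroid progenitors (MEP), their erythroid and megakaryocytic daughters, in mouse bone marrow. The comparison used the 3 arrays of each population, 6 of the 17 messenger RNA arrays of the series, and every probe that was not a control. All cells came from C57Bl/6 female mice aged 6 to 8 weeks, for which the sources give no treatment and no transgene, and each sample was a pool of 10 to 20 animals. Marrow was depleted of cells bearing B220, CD3, GR-1 or Ter119, enriched for c-kit, and sorted as lineage-negative, c-kit positive and Sca-1 negative cells. Within that gate CMP had intermediate CD34 and intermediate Fc gamma receptor, and MEP lacked both. The other 11 arrays held LT-HSC, ST-HSC, MPP and GMP, the granulocyte-monocyte progenitors, and they entered the fit to share its estimate of spread.

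Blood formation is usually drawn as a tree in which a CMP can still give granulocytes, monocytes, red cells and platelets, while a MEP has given up the granulocyte and monocyte fates. The erythroid program is built by the factors Gata1, Klf1, Tal1, Gfi1b and Zfpm1, and by the erythropoietin receptor that keeps erythroid precursors alive. The granulocyte and monocyte program is built by Sfpi1 (PU.1), Cebpa and Irf8 together with the receptors for the myeloid colony-stimulating factors. Gata1 and PU.1 are known to oppose each other, and in this tree that choice is drawn at the branch from CMP to MEP.

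In the text a level is a quantile-normalized log2 intensity of the brightest probe of a gene name, and a difference is the mean level in CMP minus the mean level in MEP on the same log2 scale, so that a negative difference is a higher level in MEP. Levels of different genes are not comparable. A gene was called where the limma fit over all 17 arrays gave a Benjamini-Hochberg adjusted p below 0.05. The p-values describe the spread between pools of animals and not between single mice. In sorted pools, fewer cells of a type and less RNA per cell cannot be told apart. Replicates 1 and 2 of both populations were scanned in 1 run, with CMP 1 and MEP 1 on a shared slide and CMP 2 and MEP 2 on another. The third pair carried no number in the labels and was scanned in a second run on separate slides and different days, so its difference is within a run but not within a slide or day. Before normalization the CMP arrays were brighter, with a 75th percentile of intensity between 485 and 529 against 283 to 322 on the MEP arrays, and had 23359 to 25765 spots well above background against 20898 to 21703.

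Of 28090 gene names, 2962 were higher in CMP, or 10.5%, and 2170 were higher in MEP, or 7.73%. Of 41174 probes, 9.43% were higher in CMP and 7.24% were higher in MEP. Among called genes with at least 1 array of each population above background, 323 were higher in CMP by at least 3 on the log2 scale and 118 were higher in MEP by as much. A further 182 and 39 had a fitted difference of that size but no array of the dimmer population above background. The median difference over all gene names was -0.10. With the 75th percentile in place of quantile normalization that median was -0.51 and the calls were 2636 higher in CMP and 2481 higher in MEP, so the balance of the calls depended on the scaling. With the replicate number as a block over the 6 arrays, 3816 genes were higher in CMP and 4837 in MEP, 8653 in all against 5132, of which 4796 were in both sets of calls. Without the block the 3 CMP values and the 3 MEP values did not overlap for 2926 of the called genes higher in CMP and 2151 of those higher in MEP, beside 4275 and 6044 over all gene names.

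**Figure D1:**
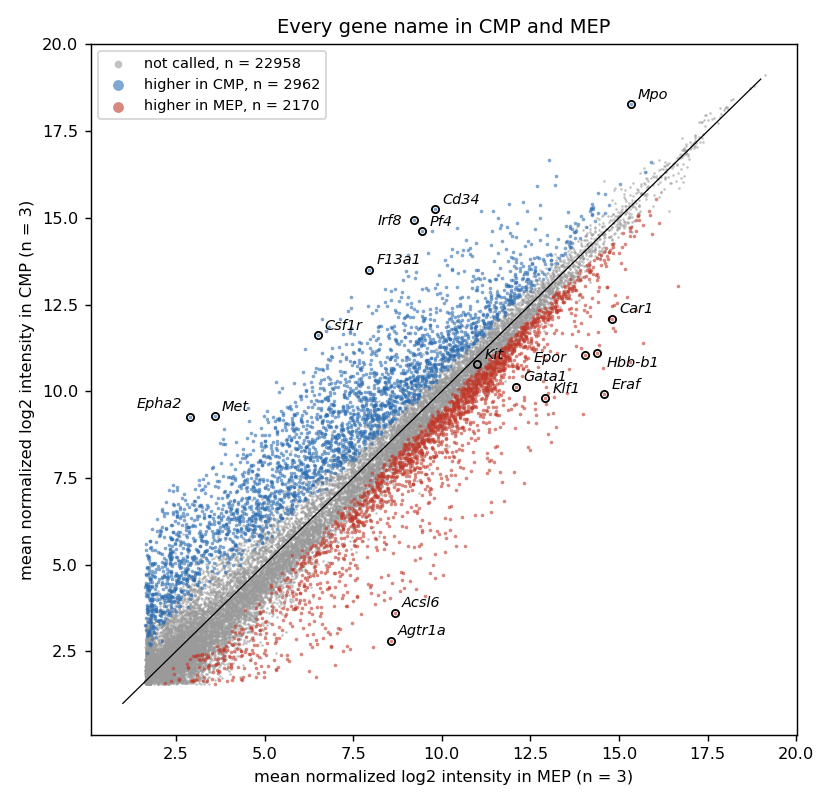
Mean normalized log2 intensity in MEP (horizontal, n = 3) against CMP (vertical, n = 3) for each of 28090 gene names, with blue points for the 2962 genes higher in CMP, red points for the 2170 higher in MEP and gray points for the rest. The line marks equal levels, and Irf8, Cd34 and Pf4 lie far above it while Agtr1a, Acsl6 and Eraf lie far below.

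The 10 widest fitted differences toward CMP, with clones and unnamed gene models left out, ran from 5.07 for Apcdd1 to 6.35 for Epha2, and that of Met has only a bound. Irf8, a transcription factor of the monocyte and dendritic lineages, was at 14.84, 14.98 and 15.01 in CMP and 8.62, 9.10 and 9.94 in MEP, a difference of 5.73 ± 0.43 (SE) or 52.9-fold (adjusted p = 9.33e-07). F13a1, the coagulation factor XIII A chain made by monocytes and megakaryocytes, differed by 5.54 (46.7-fold). Every CMP array was above every MEP array for both, as the rule for the 10 widest required. The other genes in the 10 widest toward CMP were Epha2, an ephrin receptor, at 6.35, the hepatocyte growth factor receptor Met, Serpinf1 at 5.47, Cd34 at 5.45, Ly86 at 5.29, platelet factor 4 (Pf4) at 5.17, the receptor of macrophage colony-stimulating factor Csf1r at 5.13 and Apcdd1, an inhibitor of Wnt signaling, at 5.07. For Epha2 and Apcdd1 only 1 of the 3 MEP arrays was above background, and their differences were 2.71 and 2.26 after normexp background correction. Met was above background on no MEP array, and was at least 23.2-fold higher in CMP, as read by the brightest of its 3 probes and the only one called.

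Toward MEP, 8 of the 10 widest, chosen by the same rule, had both populations above background on at least 1 array. Among them were Butr1 (now Btnl10) at -5.43, Tmem56 (now Tlcd4) at -5.34, the protein disulfide isomerase Pdia2 at -5.18, Paqr9 at -5.12 and the long-chain acyl-CoA synthetase Acsl6 at -5.05. Cldn13, a claudin, and Trim10, which is needed for terminal red cell maturation, both differed by -4.98, and Sh3tc2 by -4.88. The other 2 of the 10 by fitted difference were above background on no CMP array and have only a bound. Agtr1a, an angiotensin II receptor, was at 8.19, 8.40 and 9.09 in MEP and at least 25.7-fold higher there, and the ectonucleotidase Enpp3 was at least 11.6-fold higher. For Acsl6 only 1 CMP array was above background, and for Butr1, Tmem56 and Trim10 only 2. After normexp correction the differences were -2.79 for Butr1, -3.03 for Tmem56, -2.99 for Pdia2, -2.12 for Acsl6, -2.43 for Trim10 and -3.06 for Sh3tc2.

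The size of some differences depended on how background was removed or probes were combined. Of 139 called genes named here, 44 had a difference more than 1.5 times smaller after normexp correction, 21 in the authors' table and 16 when probes of a gene were averaged. Under these 3 settings none was more than 1.5 times larger.

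The sort itself was visible in the RNA, although these genes encode the gate and their levels are only a check of the labels. Cd34 was at 14.88, 14.80 and 16.09 in CMP and 8.74, 9.74 and 10.93 in MEP, with no overlap. Fcgr3, which encodes a receptor seen by the Fc gamma receptor antibody, was at 9.25, 10.48 and 9.60 in CMP and 9.34, 9.79 and 6.51 in MEP, and the groups overlapped (1.23, adjusted p = 0.324). Only MEP replicate 3 was low. The related Fcgr2b was higher in CMP by 2.47, with all of its 3 probes called. The 2 receptors are similar in sequence and their probes may share signal. With the replicate block Fcgr2b was not called (adjusted p = 0.0659).

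Kit, which both gates required, was at 10.69, 10.80 and 10.83 in CMP and 10.92, 10.97 and 11.11 in MEP (difference -0.23, adjusted p = 0.613). Ly6a, which encodes the Sca-1 that both gates lacked, was at 6.38 to 7.78 in CMP and 5.10 to 6.22 in MEP (1.47, adjusted p = 0.0705, and 0.029 with the replicate block). Flt3, a receptor of early lymphoid and myeloid progenitors that was not used in these gates, was at 10.26, 9.71 and 8.16 in CMP and 5.23, 5.80 and 5.49 in MEP. The difference in Flt3 was 3.87 ± 0.45 (SE, adjusted p = 3.6e-05), and 2.45 after normexp correction. Of these 6 genes, Cd34, Fcgr2b and Flt3 were called, of which Flt3 belongs to no gate used here, and the median difference was 1.97.

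**Figure D2:**
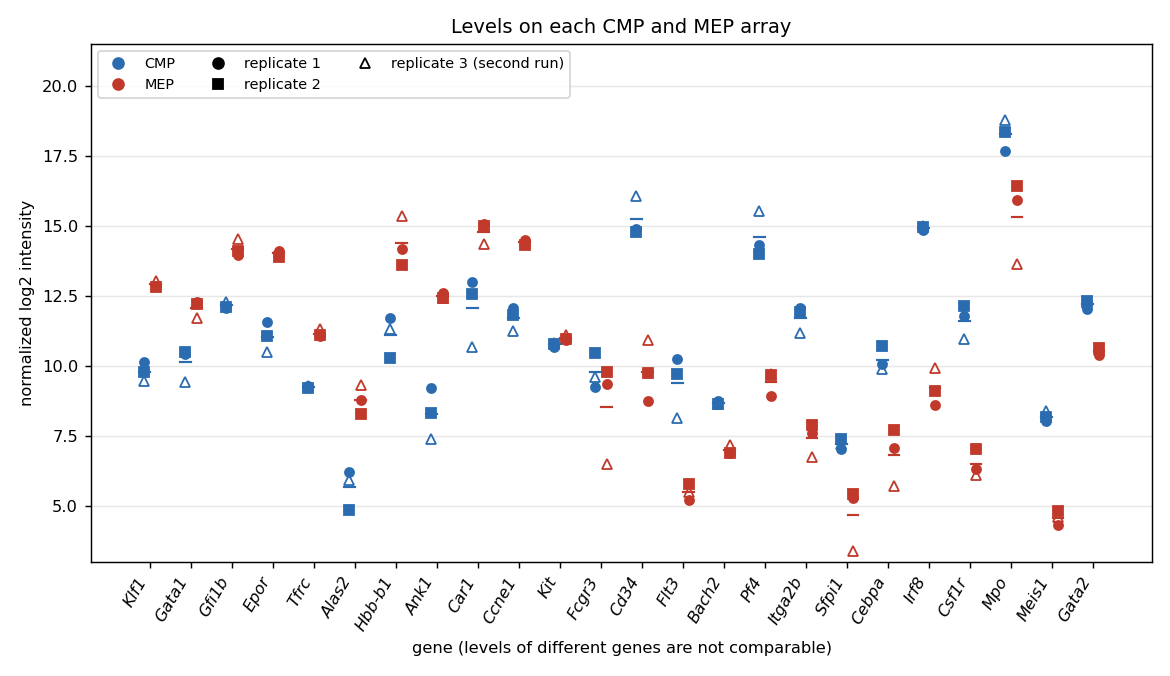
Normalized log2 intensity (vertical) of 24 genes on each CMP array (blue) and MEP array (red), with circles for replicate 1, squares for replicate 2, open triangles for replicate 3 of the second run and bars for the mean of 3. Klf1, Epor and Alas2 sit higher on every MEP array, Cd34, Pf4 and Irf8 on every CMP array, and the Kit points lie close together.

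Erythroid and megakaryocytic transcription factors split. Of 20 measured, 9 were higher in MEP, 3 were higher in CMP and 8 were not called, with a median of -0.48. Klf1, the factor that activates adult globin and red cell membrane genes, was at 10.14, 9.80 and 9.46 in CMP and 12.86, 12.83 and 13.04 in MEP, which is 8.65-fold higher in MEP (-3.11 ± 0.54, SE; adjusted p = 0.00094). Gata1, the central factor of both erythroid cells and megakaryocytes, was at 10.44, 10.50 and 9.44 in CMP and 12.30, 12.23 and 11.72 in MEP, or 3.88-fold higher (adjusted p = 0.00294). Both genes were above background on all 3 CMP arrays, and neither showed overlap. In GMP, which stand on the other branch, Klf1 was at 6.66 ± 0.46 (SD, n = 3) and Gata1 at 8.05 ± 0.07 (SD, n = 3), and in MPP they were at 5.38 ± 1.24 and 5.36 ± 0.64 (SD, n = 3). The CMP levels thus stood between those of MPP and MEP for both genes. The LT-HSC arrays gave 10.24 ± 0.84 for Klf1 and 8.47 ± 1.05 for Gata1 (SD, n = 2).

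The widest difference among these factors was that of Nfia, which acts in the erythroid against the granulocytic choice, at -3.44, with all of its 4 probes called. Gfi1b, a repressor needed for red cells and platelets, differed by -2.03 ± 0.22 (SE), from 12.09, 12.12 and 12.29 in CMP to 13.95, 14.11 and 14.52 in MEP. Tal1, a core partner of Gata1, was at 11.82, 11.78 and 12.10 in CMP and 12.96, 12.97 and 13.36 in MEP (-1.20, adjusted p = 0.000407). Zfpm1 (FOG-1), the cofactor through which Gata1 acts, differed by -1.03 with no overlap. Klf3, Sox6 and E2f2, of which Sox6 silences embryonic globin, made up the rest, and Sox6 was called at 3 of its 5 probes. Those higher in CMP were Fli1, a megakaryocytic factor that opposes Klf1, by 2.74, Hes6 by 1.95, and Nfe2, needed for platelet release, by 0.96. The fetal globin repressor Bcl11a was at -0.49, with adjusted p = 0.0555 in this fit, 0.0423 with the replicate block and 0.0069 at the 75th percentile. Some of the smaller differences were near the threshold. Nfe2 was not called without CMP replicate 3 (adjusted p = 0.0648) or MEP replicate 1 (adjusted p = 0.0614), Sox6 without CMP replicate 1 (adjusted p = 0.0601) or MEP replicate 3 (adjusted p = 0.0687), and E2f2 without any 1 of the arrays but CMP replicate 1 (adjusted p = 0.0582 to 0.127).

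The promoters of Klf1, Epor and Alas2, 3 erythroid genes higher in MEP, are shown beside those of Irf8 and Pf4, 2 genes higher in CMP, because these genes carry both sides of the comparison. Each is 300 bases from RefSeq on GRCm38.p6, from 250 before to 50 after the start site, read 5′ to 3′ on the strand of the gene. Capitals mark matches on either strand to GATAA (GATA), CCNCNCCC (the CACCC element of Klf factors, whose letters also match GC boxes), GAGGAAGT (PU.1), TGAGTCA (NF-E2) or TTGCNNAA (C/EBP), and matches that overlap run together. Klf1 lies at chr8:84901732-84902031 (plus strand), Epor at chr9:21963527-21963826 (minus strand), Alas2 at chrX:150547167-150547466 (plus strand), Irf8 at chr8:120736108-120736407 (plus strand) and Pf4 at chr5:90772185-90772484 (plus strand).
Klf1: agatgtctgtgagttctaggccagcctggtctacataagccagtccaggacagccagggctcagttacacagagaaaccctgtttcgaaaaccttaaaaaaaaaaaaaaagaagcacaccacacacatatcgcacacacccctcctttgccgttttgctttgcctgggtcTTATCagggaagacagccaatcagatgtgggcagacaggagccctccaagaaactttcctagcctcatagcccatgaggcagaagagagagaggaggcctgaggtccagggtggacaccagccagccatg
Epor: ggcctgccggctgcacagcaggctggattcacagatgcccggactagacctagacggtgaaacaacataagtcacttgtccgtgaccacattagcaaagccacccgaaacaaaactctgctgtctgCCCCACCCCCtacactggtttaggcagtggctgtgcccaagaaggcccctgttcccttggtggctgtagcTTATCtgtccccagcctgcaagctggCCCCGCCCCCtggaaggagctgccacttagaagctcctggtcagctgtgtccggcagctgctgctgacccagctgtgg
Alas2: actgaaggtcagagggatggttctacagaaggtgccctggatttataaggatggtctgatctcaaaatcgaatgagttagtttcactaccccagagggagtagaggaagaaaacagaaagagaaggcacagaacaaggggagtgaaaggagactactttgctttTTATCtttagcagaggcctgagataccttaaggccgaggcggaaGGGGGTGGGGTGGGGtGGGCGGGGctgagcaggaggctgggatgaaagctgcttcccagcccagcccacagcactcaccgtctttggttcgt
Irf8: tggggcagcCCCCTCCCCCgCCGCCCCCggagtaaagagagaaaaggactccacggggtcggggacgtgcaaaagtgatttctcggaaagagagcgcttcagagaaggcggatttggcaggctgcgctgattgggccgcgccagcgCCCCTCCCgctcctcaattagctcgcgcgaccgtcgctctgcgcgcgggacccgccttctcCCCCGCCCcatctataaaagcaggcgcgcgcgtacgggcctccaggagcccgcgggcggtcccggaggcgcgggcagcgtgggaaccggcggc
Pf4: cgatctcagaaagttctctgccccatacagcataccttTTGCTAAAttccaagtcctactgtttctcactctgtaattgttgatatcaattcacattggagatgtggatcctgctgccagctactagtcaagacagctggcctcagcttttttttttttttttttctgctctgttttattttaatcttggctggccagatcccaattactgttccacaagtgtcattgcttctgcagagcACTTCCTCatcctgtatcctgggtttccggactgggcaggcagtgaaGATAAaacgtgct

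Klf1, Epor and Alas2 each held 1 GATA match, whose first base on the printed strand lay at -80, -54 and -86 from the start site. Epor and Alas2 also held 4 CACCC matches each. Irf8 held 5 CACCC matches and no GATA match, and Pf4 held a GATA match at 38, a PU.1 match at -10 and a C/EBP match at -212. Such matches are letters and not sites of binding. GATAA was found in 18.1% of 1721 promoters of genes higher in MEP, 17.1% of 2441 promoters of genes higher in CMP, 20.8% of 16281 promoters of all genes tested and 25.4% of all 32851 promoters. AGATAA gave 7.79%, 6.72%, 8.97% and 11.2% in the same order. The CACCC letters were in 64.4% of promoters of genes higher in MEP, 70.0% of those higher in CMP and 60.7% of those of genes tested. For GAGGAAGT the shares were 2.73%, 4.59% and 2.82%, for TGAGTCA 3.95%, 4.59% and 4.51%, and for TTGCNNAA 9.24%, 9.59% and 9.98%. Promoters were found for 1373 genes higher in MEP, 1824 higher in CMP and 13116 genes tested.

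Cytokine receptors differed in both directions. Of 22, 13 were higher in CMP and 3 in MEP, with a median of 1.49. Epor, the erythropoietin receptor, was at 11.56, 11.08 and 10.49 in CMP and 14.10, 13.91 and 14.07 in MEP, 7.92-fold higher in MEP (adjusted p = 1.1e-05). It stood at 7.65 ± 0.16 (SD, n = 3) in GMP. The other receptors higher in MEP were Trfr2 (transferrin receptor 2, now Tfr2), which binds Epor, at -1.71, and Il1rl1, the receptor of interleukin 33, at -1.77 with all of its 3 probes called.

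The receptor with the widest difference toward CMP was Csf1r. Csf1r was at 11.77, 12.14 and 10.95 in CMP and 6.33, 7.03 and 6.12 in MEP, a difference of 5.13 ± 0.49 (SE), with all of its 3 probes called. Il6st, the signal chain shared by the interleukin 6 family, was higher in CMP by 4.94, Il6ra by 3.50 and Il4ra by 3.49. For Il6st and Il6ra 2 of the 3 MEP arrays were above background, and after normexp correction they differed by 3.17 and 1.96.

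Some receptor chains of the other colony-stimulating factors were also higher in CMP. Csf3r, the receptor of granulocyte colony-stimulating factor, was at 8.74, 9.03 and 8.32 in CMP and 6.77, 7.37 and 4.38 in MEP, where 2 of 3 arrays were above background (2.52, adjusted p = 0.00754). The shared beta chain Csf2rb was higher by 3.16, at 2 of its 3 probes, and the similar Csf2rb2 by 3.06, and the sequences of these neighbors may share signal. MEP replicate 3 was the lowest array for Csf3r, Csf2rb and Csf2rb2. After normexp correction Csf3r differed by 1.38. Without that MEP array it differed by 1.62 (adjusted p = 0.00645), and with the replicate block Csf3r was not called (adjusted p = 0.0546).

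Genes for making heme lay mostly on the MEP side. Of 25 genes of heme synthesis and iron uptake, 16 were higher in MEP and 1 in CMP, with a median of -1.72. Cpox, which makes protoporphyrinogen, was 10.1-fold higher in MEP, Blvrb, a biliverdin reductase, 7.69-fold and Fech, which inserts the iron, 5.51-fold. Alas2, the erythroid form of the first enzyme of the pathway, was at 6.23, 4.85 and 5.92 in CMP and 8.79, 8.29 and 9.32 in MEP, 8.80-fold higher (adjusted p = 0.0027). Its difference of -3.14 was -1.84 after normexp correction. The one member higher in CMP was Alas1, the form of the same enzyme used outside red cells, by 1.25 (adjusted p = 0.0137), and Alas1 was at 15.15 ± 0.14 (SD, n = 3) in GMP. That call was lost without CMP replicate 2, CMP replicate 3 or MEP replicate 3 (adjusted p = 0.054 to 0.0665) and with the replicate block (adjusted p = 0.0794). Tfrc, the transferrin receptor that brings iron in, was at 9.27, 9.22 and 9.28 in CMP and 11.05, 11.11 and 11.31 in MEP, 3.73-fold higher (adjusted p = 2.6e-06), with no overlap.

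Of 7 globins and their chaperone, 4 were higher in MEP, with a median of -3.27. Hbb-b1, an adult beta globin, was at 11.70, 10.30 and 11.34 in CMP and 14.20, 13.62 and 15.34 in MEP, and all of its 4 probes were called. Hba-a1 was at 10.17, 8.47 and 10.25 in CMP and 12.85, 12.17 and 13.80 in MEP (9.92-fold), and its near copy Hba-a2, whose signal cannot be separated from it with certainty, differed by -3.35. Eraf (now Ahsp), the chaperone of free alpha globin, was 25.5-fold higher in MEP (adjusted p = 0.00129). CMP replicate 2 was lowest of the CMP arrays for all 3 globins. In MPP Hbb-b1 was at 13.19 ± 0.55 and Hba-a1 at 10.75 ± 0.71 (SD, n = 3), above the CMP means for both, while Eraf in MPP was at 7.54 ± 1.57. The embryonic globins Hba-x and Hbb-bh1 were above background on none of the 6 arrays.

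Red cell membrane and carbonic anhydrase genes followed. Of 27, 24 were higher in MEP and 1 in CMP, with a median of -3.15. Ank1, the ankyrin that ties the membrane to its skeleton, was at 9.22, 8.31 and 7.38 in CMP and 12.62, 12.44 and 12.42 in MEP, 18.3-fold higher, with all of its 5 probes called. Rhag and Rhd, of the Rh complex, were 26.9-fold and 25.0-fold higher in MEP. Epb4.2 (protein 4.2) was above background on no CMP array and was at least 8.53-fold higher in MEP.

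The carbonic anhydrases were higher in CMP than in GMP, but not the highest outside MEP. Car1 was at 12.99, 12.59 and 10.69 in CMP and 15.06, 14.99 and 14.34 in MEP, 6.55-fold higher, beside 7.23 ± 0.38 (SD, n = 3) in GMP. Car2 was at 13.14, 12.57 and 11.31 in CMP and 15.64, 15.53 and 15.30 in MEP, 8.88-fold higher. The CMP means, 12.09 for Car1 and 12.34 for Car2, were below those of LT-HSC at 13.37 ± 0.45 and 14.30 ± 0.61 (SD, n = 2), and Car2 was also higher in ST-HSC at 13.30 ± 0.49 and MPP at 12.96 ± 0.69 (SD, n = 3). Replicate 3 was the lowest CMP array for Ank1, Car1 and Car2. The member higher in CMP was Slc2a1, the glucose transporter GLUT1, by 2.95 (7.73-fold, adjusted p = 2.09e-06).

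All 9 markers of late erythroid cells, a list with 8 members in the lists above, were higher in MEP, with a summed log2 level of 65.0 to 74.7 on the CMP arrays and 99.6 to 109 on the MEP arrays. Slc4a1 (band 3) was at 5.83, 5.10 and 7.09 in CMP and 9.16, 8.99 and 10.88 in MEP, with no overlap. The depletion step had removed Ter119 positive cells. Whether erythroid cells later than MEP contributed to the levels in the MEP gate was not tested.

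**Figure D3:**
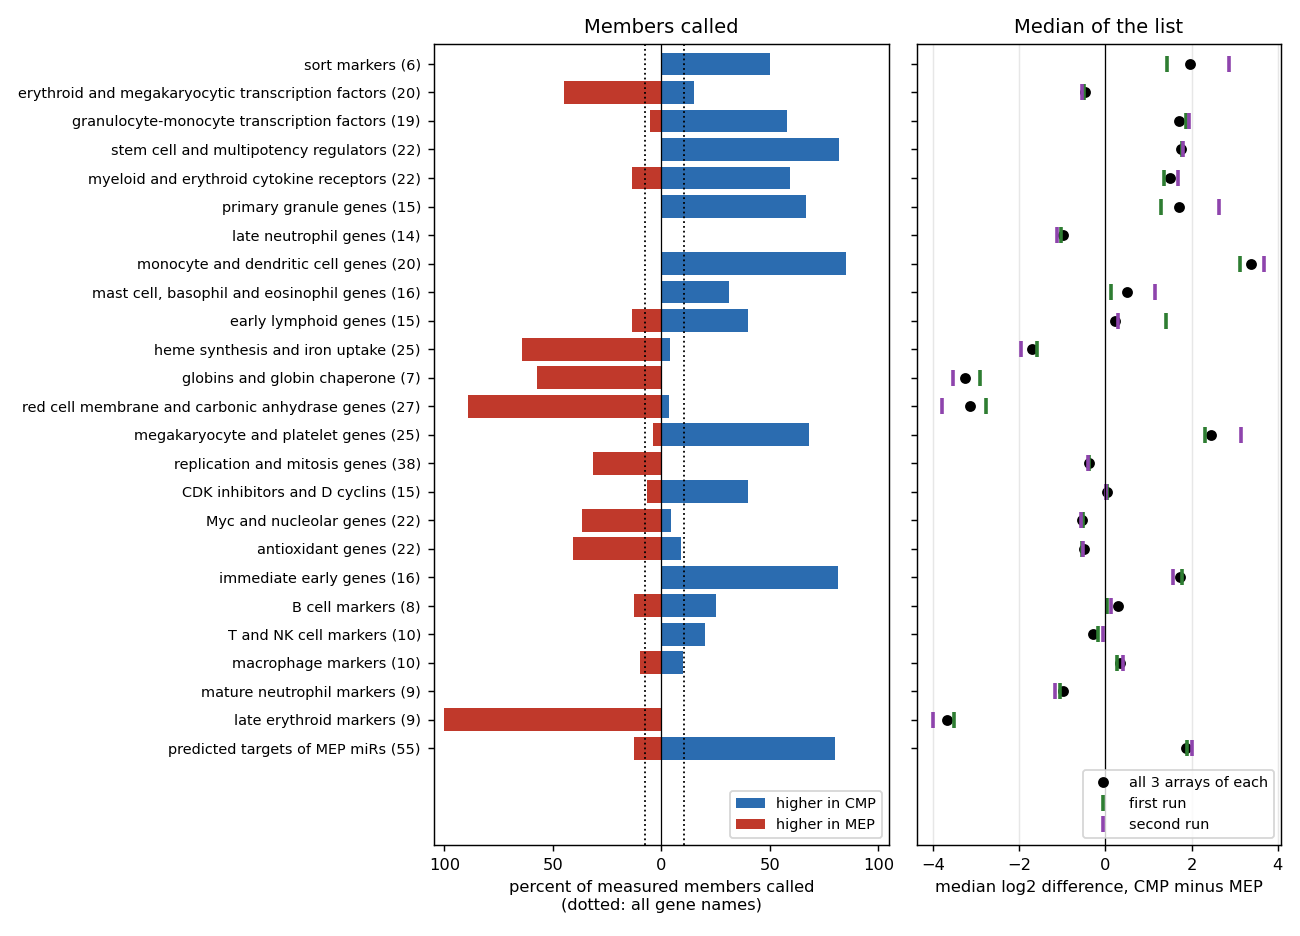
Left, percent of measured members of each of 25 gene lists called higher in CMP (blue, to the right) or higher in MEP (red, to the left), with dotted lines at the 10.5% and 7.73% of all gene names. Right, the median log2 difference of each list over all arrays (black points) and within the first (green) and second (purple) scanning run, from -3.67 for late erythroid markers to 3.39 for monocyte and dendritic cell genes.

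Megakaryocyte and platelet genes went the other way from red cell genes. Of 25, 17 were higher in CMP and 1 in MEP, although MEP are named for this fate. The median of megakaryocyte and platelet genes was 2.44, and 1.22 after normexp background correction. Pf4, a chemokine stored in platelets, was at 14.32, 13.99 and 15.54 in CMP and 8.92, 9.69 and 9.72 in MEP, 36.1-fold higher in CMP (5.17 ± 0.43, SE; adjusted p = 2e-06). Itga2b, the CD41 chain of the fibrinogen receptor, was at 12.06, 11.92 and 11.18 in CMP and 7.62, 7.89 and 6.73 in MEP, 19.8-fold higher. Treml1, a receptor of platelet granules, was 21.7-fold higher in CMP and Plek, a kinase substrate of platelets and leukocytes, 18.7-fold. All 3 MEP arrays were above background for Pf4, Itga2b, Treml1 and Plek.

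Some of these genes were also read in the other populations. Pf4 was at 12.51 ± 0.71 in GMP and 9.84 ± 0.53 in MPP, and Itga2b at 10.45 ± 0.29 in GMP and 6.04 ± 1.27 in MPP (SD, n = 3), so that for both genes the CMP mean was above those of MPP, GMP and MEP. In ST-HSC Pf4 was at 14.68 ± 0.14 (SD, n = 3), level with the CMP mean of 14.62 ± 0.82, and Itga2b at 10.15 ± 0.41. Vwf, the von Willebrand factor, was higher in CMP than in MEP by 2.44, at 2 of its 3 probes. The granule receptor Selp was above background on no MEP array, and was at least 6.65-fold higher in CMP. The glycoprotein Ib-IX-V genes did not move as 1 group, since Gp1bb at 2.25 and Gp9 at 1.25 were higher in CMP while Gp1ba was at 0.25 (adjusted p = 0.75) and Gp5 at -0.04 (adjusted p = 0.99). The single member higher in MEP was Gata1. Gp9 was not called without CMP replicate 3, MEP replicate 1 or MEP replicate 2 (adjusted p = 0.0627 to 0.0799).

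**Figure D4:**
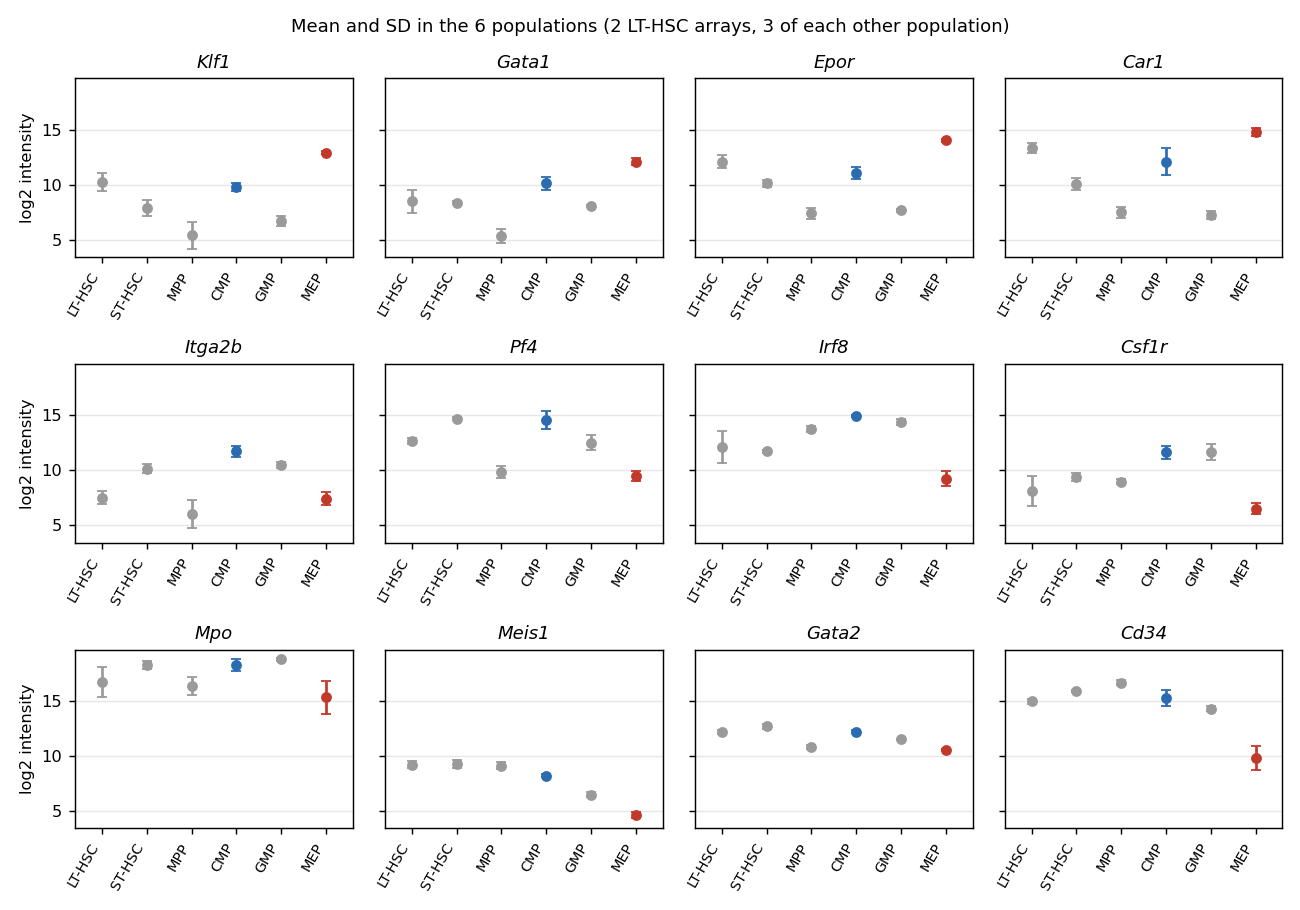
Mean normalized log2 intensity with SD (bars) of 12 genes in LT-HSC (n = 2 arrays), ST-HSC, MPP, CMP (blue), GMP and MEP (red; n = 3 each). Klf1, Epor and Car1 have their highest means in MEP, with LT-HSC and CMP next, and Pf4 and Itga2b are higher in CMP than in MPP, GMP or MEP, with Pf4 as high in ST-HSC.

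Granulocyte-monocyte transcription factors were higher in CMP for 11 of 19 and higher in MEP for 1, with a median of 1.71. Cebpa, which is needed to form GMP, was at 10.05, 10.70 and 9.90 in CMP and 7.07, 7.70 and 5.71 in MEP, 10.5-fold higher in CMP (adjusted p = 0.0001), and was 11.59 ± 0.34 (SD, n = 3) in GMP. Sfpi1 (PU.1, now Spi1) was at 7.02, 7.38 and 7.22 in CMP and 5.27, 5.41 and 3.38 in MEP, where 2 of 3 arrays were above background, a difference of 2.52 ± 0.55 (SE, adjusted p = 0.00482) that was 1.01 after normexp correction. Neither gene overlapped between the groups, and MEP replicate 3 was the lowest array for both. Runx2, a factor of dendritic and bone cells, was higher in CMP by 4.08, Irf5 by 3.76 and the monocyte factor Klf4 by 3.69. The one higher in MEP was Maf, at -1.11 (adjusted p = 0.0303), at 1 of its 3 probes. It was not called without CMP replicate 2, CMP replicate 3, MEP replicate 1 or MEP replicate 3 (adjusted p = 0.0709 to 0.128).

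The primary granule genes, which mark the earliest neutrophil precursors, were higher in CMP for 10 of 15 and in MEP for none. The median of primary granule genes was 1.71, with 1.29 within the first run and 2.64 within the second. Mpo, the myeloperoxidase, was at 17.66, 18.37 and 18.78 in CMP and 15.93, 16.42 and 13.63 in MEP, 7.71-fold higher in CMP (2.95 ± 0.67, SE; adjusted p = 0.00687). Ctsg, the cathepsin of the same granule, was at 15.24, 16.09 and 16.41 in CMP and 13.25, 13.93 and 10.84 in MEP, 9.44-fold higher. Prtn3 (proteinase 3) was at 11.31, 12.16 and 11.91 in CMP and 10.23, 10.67 and 7.67 in MEP (2.27, adjusted p = 0.0361). MEP replicate 3 stood apart for all 3 genes, by more than 2 on the log2 scale from the other MEP arrays. With the replicate block none of the 3 was called, at adjusted p = 0.0926 for Mpo, 0.0852 for Ctsg and 0.124 for Prtn3. Prtn3 was also not called without any 1 CMP array or without MEP replicate 3 (adjusted p = 0.0534 to 0.127), and without MEP replicate 3 it differed by 1.35. Without that array Mpo differed by 2.10 (adjusted p = 0.022) and Ctsg by 2.32 (adjusted p = 0.0108).

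Ela2 (neutrophil elastase, now Elane) was not called, and MEP replicate 3 was again the lowest array. Ela2 was at 10.14, 11.27 and 11.83 in CMP and 10.47, 11.01 and 8.37 in MEP, a difference of 1.13 (adjusted p = 0.481) that was -0.04 within the first run and 3.46 within the second. Cst7, a cystatin of myeloid cells, was higher in CMP by 2.96 and the lysosomal hexosaminidase Hexa by 2.28. Of 14 late neutrophil genes none was called either way, with a median of -0.99. The largest differences were those of Lcn2 at -1.65 (adjusted p = 0.0795), Mmp8 at 1.62 (adjusted p = 0.0574) and Ltf at -1.48 (adjusted p = 0.137). Negative differences numbered 11 of 14, beside 17233 of 28090 over all gene names. With the replicate block Lcn2 (adjusted p = 0.0279) and Mmp8 (adjusted p = 0.0278) were called, in opposite directions.

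Monocyte and dendritic cell genes had the highest median of the 25 lists, 3.39. Of 20, 17 were higher in CMP and none in MEP. Beside Irf8, F13a1, Ly86 and Csf1r, the chemokine receptor Cx3cr1 was above background on no MEP array and was at least 13.4-fold higher in CMP at 1 of its 2 probes, and Ccr2 was higher by 4.40 and the pore protein Mpeg1 by 4.37. In GMP Irf8 was at 14.37 ± 0.27 and Csf1r at 11.70 ± 0.72, and in MPP at 13.77 ± 0.30 and 8.95 ± 0.22 (SD, n = 3). Of 16 genes of mast cells, basophils and eosinophils, 5 were higher in CMP and none in MEP. The median of mast cell, basophil and eosinophil genes was 0.50 and ranged from -0.0493 without CMP replicate 2 and 0.001 without MEP replicate 3 to 0.94 without MEP replicate 2. These were the mast cell protease Cpa3 by 3.18, Gzmb (at least 3.60-fold), Mcpt8 by 2.13, Ms4a2, a chain of the IgE receptor (at least 1.12-fold, above background on 2 CMP arrays and no MEP array), and Gata2. The eosinophil genes Prg2 and Epx were at 15.42, 15.61 and 12.31 and at 12.17, 12.50 and 8.86 in MEP, again with replicate 3 the lowest. Without that array Mcpt8 differed by 1.34, and it was not called without it, without CMP replicate 2 or without CMP replicate 3 (adjusted p = 0.0628 to 0.0858) or with the replicate block (adjusted p = 0.105). Ms4a2 was not called with the block (adjusted p = 0.0581) or after normexp background correction (adjusted p = 0.41).

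Regulators of stem cells and multipotency were higher in CMP for 18 of 22 and in MEP for none, with a median of 1.76. Meis1, a homeobox partner of Hox proteins, was at 8.05, 8.16 and 8.38 in CMP, was above background on no MEP array and was at least 10.7-fold higher in CMP. Mycn was at 8.02, 7.91 and 8.58 in CMP and 2.60, 4.45 and 5.59 in MEP, where 1 of 3 arrays was above background (3.96, adjusted p = 0.000182, and 1.60 after normexp correction). Hoxa9 was at 8.61, 8.48 and 8.86 in CMP and 6.64, 7.06 and 7.01 in MEP, 3.35-fold higher. Erg, an ETS factor of stem cells, was higher in CMP by 3.54, and Hoxa10, above background on no MEP array, was at least 2.03-fold higher. All CMP arrays were above all MEP arrays for these 5 genes, as for 2926 of the 2962 genes called higher in CMP.

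Gata2, the GATA factor that precedes Gata1, was at 12.04, 12.33 and 12.25 in CMP and 10.41, 10.64 and 10.56 in MEP, 3.19-fold higher in CMP (1.67 ± 0.15, SE; adjusted p = 4e-06), while Gata1 was higher in MEP. Runx1 was at 9.32, 9.42 and 9.04 in CMP and 7.93, 7.96 and 7.47 in MEP, a difference of 1.47 that was called at 1 of its 2 probes. Myb, which all cycling progenitors use, was at 13.34, 13.42 and 13.93 in CMP and 12.94, 13.21 and 13.47 in MEP, with overlap (0.36, adjusted p = 0.379).

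The series also asked which messengers the miRs of MEP may repress. The sequence of the erythroid miR mmu-miR-144-3p from RefSeq (chr11:78073047-78073066 on GRCm38.p6, plus strand) is shown with its seed, bases 2 to 8, in capitals, because the genes whose 3′ ends were assayed against it, Meis1, Mycn, Bach2 and Trp53inp1, are in this comparison.
mmu-miR-144-3p: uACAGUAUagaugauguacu

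No miR was measured on these arrays. Bach2, a repressor of myeloid genes in lymphoid cells, was at 8.73, 8.64 and 8.63 in CMP and 6.90, 6.90 and 7.18 in MEP, 3.20-fold higher in CMP (adjusted p = 2.7e-05). Trp53inp1, a p53 target, was at 9.15, 9.19 and 9.79 in CMP and 8.11, 8.22 and 8.86 in MEP, 1.97-fold higher at 1 of its 2 probes. Its call was lost without CMP replicate 3, MEP replicate 1 or MEP replicate 2 (adjusted p = 0.0853 to 0.104). Of the 55 measured genes that the study listed as targets of MEP miRs, 44 were higher in CMP and 7 in MEP, with a median of 1.87. The study had chosen those targets by a predicted binding site and an inverse pattern of expression to the miR over its 6 populations, these samples included, so the count is not independent evidence of its direction. Toward CMP, Coro2a differed by 4.35 and Trps1, a GATA-type repressor, by 4.33, and Met (at least 23.2-fold) and the estrogen receptor Esr1 (at least 4.14-fold) have only a bound. The 4 widest toward MEP were the transporter Abcg4 at -4.86, the spectrin Spnb1 at -4.50, Nfia and Carhsp1 at -2.15. Within the listed targets Mllt4 and Mllt6 each had a probe called the other way, and with the mean of all probes they were not called (adjusted p = 0.207 and 0.942).

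Early lymphoid genes were mixed. Of 15, 6 were higher in CMP and 2 in MEP. The median of early lymphoid genes was 0.23 and became 1.51 without MEP replicate 3, 0.75 without CMP replicate 3 and 0.62 without CMP replicate 2, but 0.0282 at the 75th percentile and 0.10 after normexp correction. Dntt, the terminal transferase of lymphoid progenitors, was at 15.70, 14.88 and 15.02 in CMP and 10.64, 10.82 and 12.91 in MEP, 13.4-fold higher in CMP with all of its 3 probes called, and MEP replicate 3 was the highest MEP array. Cd27, a receptor of the tumor necrosis factor family, was higher in CMP by 4.17 and the chromatin organizer Satb1 by 3.60. Toward MEP, Igll1, a surrogate light chain gene, was above background on no CMP array and at least 5.25-fold higher in MEP, called at 1 of its 2 probes, and Tcfe2a (now Tcf3) differed by -0.87. In MPP Dntt was at 17.39 ± 0.18 (SD, n = 3), above CMP, and in GMP at 8.35 ± 0.60.

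Growth and division genes differed by smaller steps. Of 38 replication and mitosis genes, 12 were higher in MEP and none in CMP. The median of replication and mitosis genes was -0.38, and -0.76 at the 75th percentile, where the median of all genes was also lower. Ccne1, the cyclin that starts DNA synthesis, was at 12.07, 11.83 and 11.26 in CMP and 14.52, 14.33 and 14.42 in MEP, 6.50-fold higher in MEP. The origin licensing factor Cdc6 was 3.15-fold higher, Ccne2 2.74-fold, and the centromeric histone Cenpa differed by -1.39. The proliferation marker Mki67 was at 14.02, 13.93 and 14.56 in CMP and 14.45, 14.29 and 14.97 in MEP, with overlap (-0.40, adjusted p = 0.252). Mki67 was higher in MEP in each of the 3 pairs, and was called with the replicate block (adjusted p = 0.029). Of 15 cyclin-dependent kinase inhibitors, D cyclins and partners, 6 were higher in CMP and 1 in MEP. Those toward CMP included the inhibitors Cdkn1a (p21) by 3.47 and Cdkn2d (p19) by 2.15 and the cyclins Ccnd1 by 1.87 and Ccnd2 by 1.55, and the one toward MEP was Rb1 at -0.92. Rb1 was not called without CMP replicate 1, CMP replicate 2 or MEP replicate 3 (adjusted p = 0.0504 to 0.0613), nor Cenpa with the mean of all probes (adjusted p = 0.439).

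Of 22 Myc and nucleolar genes, 8 were higher in MEP and 1 in CMP, with a median of -0.55. Bysl, needed for the small ribosomal subunit, differed by -1.24 at all of its 3 probes, Rrp9 by -1.07, Nolc1 by -0.99 and Rpo1-2 (now Polr1b), a subunit of RNA polymerase I, by -0.98. Myc itself was at 11.28, 11.70 and 12.18 in CMP and 11.27, 11.55 and 11.94 in MEP (0.13, adjusted p = 0.891), while its relative Mycl1 was higher in CMP by 3.71, with 1 MEP array above background. Of 22 antioxidant genes, 9 were higher in MEP and 2 in CMP, with a median of -0.51. Nqo1, a quinone reductase, differed by -2.04, Gstm5 was 4.08-fold higher in MEP, the mitochondrial thioredoxin reductase Txnrd2 2.96-fold and Prdx3 differed by -1.41. The glutathione transferases Gstm1 (2.98-fold) and Mgst1 (2.82-fold) were higher in CMP. Neither was called without CMP replicate 2, CMP replicate 3 or MEP replicate 3, nor Gstm1 without MEP replicate 1 (adjusted p = 0.056 to 0.135 for Gstm1 and 0.063 to 0.117 for Mgst1), and without MEP replicate 3 Mgst1 differed by 0.90. With the replicate block their adjusted p were 0.129 and 0.11.

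Immediate early genes, which respond within minutes to growth factors and to handling of cells, were higher in CMP for 13 of 16 and in MEP for none, with a median of 1.73. Nr4a1, an orphan nuclear receptor, was at 15.85, 15.09 and 14.05 in CMP and 11.54, 11.72 and 11.47 in MEP, 10.7-fold higher. Klf6 was higher by 2.90, Zfp36, which destabilizes cytokine messengers, by 2.57 and Ier3 by 2.45. No CMP array overlapped a MEP array for these 4 genes, as for 2926 of the 2962 genes called higher in CMP. The part of cell handling in these levels was not tested.

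Markers of cells that the gates should lack were read as a check. Calls in these short lists stand beside 10.5% of all gene names higher in CMP and 7.73% higher in MEP. Of 8 B cell markers, 2 were higher in CMP and 1, not reported here, in MEP. Cd79a, Pax5, Ms4a1, Blk and Cr2 were above background on none of the 6 arrays, and Igh-6 (the mu heavy chain, now Ighm, at 1 of its 3 probes) was higher in CMP by 4.28 and Cd79b 8.55-fold. Their summed log2 level was 44.5 to 49.3 in CMP and 39.0 to 43.9 in MEP. Of 10 T and NK cell markers, Nkg7 by 2.27 and Lck by 1.13 were higher in CMP and Cd2 and Ncr1 were above background nowhere, with a summed level of 49.0 to 51.9 in CMP and 47.7 to 53.9 in MEP. With the replicate block Lck and Nkg7 were not called (adjusted p = 0.0995 and 0.0535).

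Of 10 macrophage markers 1 was called each way, near the 10.5% and 7.73% of all gene names. Spic was higher in CMP by 1.85. The iron exporter Slc40a1, which erythroid precursors also use, was higher in MEP at -3.34, and Timd4 was above background nowhere. The summed level of the macrophage markers was 55.1 to 61.5 in CMP and 56.3 to 59.6 in MEP. Spic was not called without CMP replicate 3 (adjusted p = 0.0592) or MEP replicate 1 (adjusted p = 0.0595). Of 9 mature neutrophil markers, all of them in the late neutrophil list above, none was called and 8 of the differences were negative. Their summed level was 77.9 to 86.4 in CMP and 87.4 to 94.0 in MEP. The part of any of these cells in the results was not tested.

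**Figure D5:**
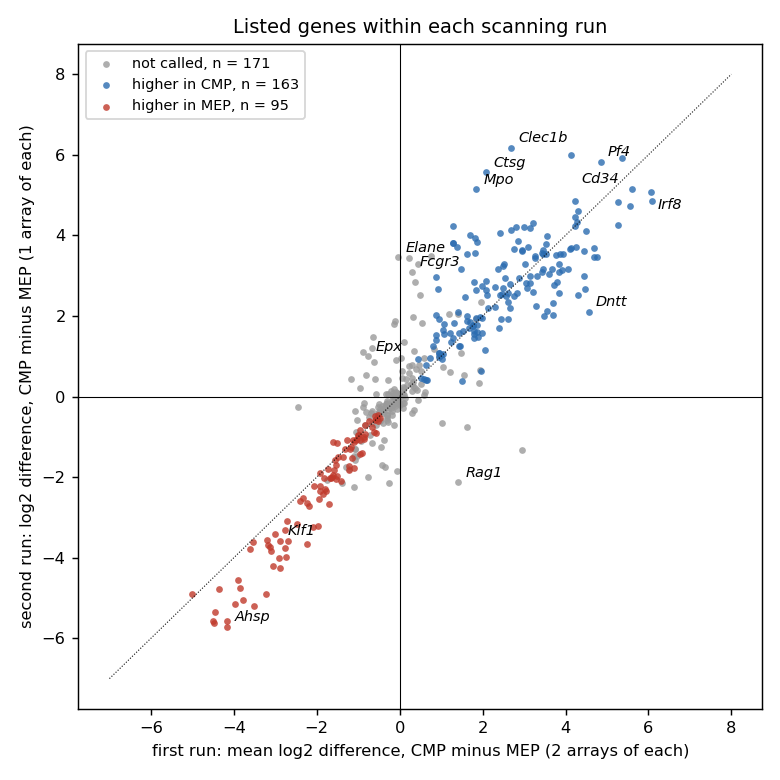
For 429 listed genes, the mean log2 difference CMP minus MEP within the first scanning run (horizontal, 2 arrays of each population) against that within the second run (vertical, 1 array of each), with the dotted line at equal values. All 258 called genes (163 higher in CMP in blue, 95 higher in MEP in red) have the same sign in both runs, and Mpo, Ctsg, Elane and Fcgr3 lie above the dotted line while Dntt lies below it. The calls rest on these same arrays.

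The 2 scanning runs could be compared because each held both populations. Over the 429 genes of the lists, 163 were higher in CMP, 95 were higher in MEP and 171 were not called, and the 258 called genes had the same sign within each run. Over all gene names 2 of 5132 called genes had opposite signs in the 2 runs. The calls were made from these same arrays, so the shared signs are not independent evidence. The sizes differed more than the signs. Mpo differed by 1.84 in the first run and 5.15 in the second, Clec1b, a receptor of platelets, by 2.69 and 6.17 (not called with the replicate block, adjusted p = 0.0671), and Dntt by 4.56 and 2.10, while Klf4 gave 3.78 and 3.51 and Gata2 1.66 and 1.69. Late erythroid markers had a median of -3.51 in the first run and -4.01 in the second, and megakaryocyte genes 2.30 and 3.16. The second run holds 1 array of each population, so its differences have no replicate.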

How the data were processed

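Messenger RNA was read on Agilent single-color 4x44k arrays. The authors deposited the scanner output of Agilent Feature Extraction (9.5.3.1 and 10.2.1.3), whose intensity per spot was background-subtracted by that software. A quantile-normalized log2 table, also deposited by the authors, ranked its values as the median spot signals do (lowest Spearman rho 1) and served as an alternative. Here log2 intensities of the 17 arrays were quantile normalized in limma 3.58.1 (R 4.3.3). Then 1639 control spots and outlier spots were left out, 161 probe values were missing, and spots of a probe were averaged. The probe with the highest mean stood for each gene name, and 8783 names had several probes. A mean per population was fitted over all arrays (lmFit, eBayes), CMP minus MEP was tested, and p-values were adjusted by Benjamini-Hochberg at 0.05.

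A probe well above background on no array of a population got a bound in place of a fold. The bound set the mean of the brighter population against, per array of the dimmer one, the higher of the probe's level and the lowest level well above background there. The number of arrays limits the precision. Tested on simulated data in which 200 of 28090 genes changed, the fit of CMP against MEP recovered 24% of changes of 1 and 74% of changes of 2 on the log2 scale, all with the right sign, and made 8 false calls. The simulation had independent noise and far fewer changed genes than the 5132 called here, so its rates do not measure this comparison. The labels number the CMP and MEP arrays 1 and 2, each pair on its own slide, and the unnumbered arrays were taken as the third pair. No label says that same-numbered arrays share animals. Deviations from the population means correlated at 0.26, 0.33 and 0.48 within pairs. Between pairs they were at 0.08 and 0.14 within the first run and -0.36 to -0.27 across the 2 runs. Pairing cannot be told apart here from a shared slide or run, and the pairs were used as a block only in an alternative.

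The gene lists and rules were chosen with earlier results of these data known. The genes named were fixed anchors, the 10 widest differences each way, the sort markers, and in each list up to 4 of the widest calls each way, or all calls where 5 or fewer. The B cell marker called higher in MEP was left out. The 10 widest also had to be free of overlap between the populations, well above background in the brighter one and of the same sign in both runs, and names of clones, accessions and Rik models were left out. Outside this rule, the called genes E2f2, Klf3, Sox6, Ccr2, Mpeg1, Il4ra, Csf2rb, Csf2rb2, Vwf, Selp, Gp9, Gp1bb, Clec1b, Slc4a1 and Cx3cr1 were chosen after their values were seen, as were Mki67, Myc, Bcl11a, Gp1ba, Gp5, Lcn2, Mmp8, Ltf, Prg2, Epx, Il7r and Rag1, which were not called. Cebpe, Ly6g, Hbb-b2, Tubb1 and Trim58 were not found by name, and some list members are not reported here. Current symbols were matched by accession for 16401 names. Promoter and miR sequences are from RefSeq tables on GRCm38.p6, and no coordinates of the mm9 probes were mixed with them. Alternatives were the 75th percentile normalization, the log2 table of the authors, removal of dim probes, normexp (offset 50), the mean of all probes, the 6 arrays alone, leaving out LT-HSC, blocks for run, for slide (random) or for replicate number, values within each run and each array left out. The first run alone with slide as a block was added after seeing the data.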

Additional observations from a re-analysis of the deposited data

How the results depend on the processing

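No gene called between CMP and MEP was called in the opposite direction under any of the 18 alternative fits. Genes called in all numbered 5132, with 3979 to 4620 when 1 array was left out, 4029 in the first run alone with slide as a block (chosen after seeing the data), 5424 among 16796 genes after the filter on dim probes and 6427 with slide as a random block. With the scanning run as a block 7715 genes were called over all 17 arrays (3884 higher in MEP) and 9325 over the 6 arrays (5147 higher in MEP). With the replicate block, which pairs the CMP and MEP arrays by number, 8653 were called (3816 higher in CMP and 4837 higher in MEP). The share of calls higher in CMP, 57.7%, was then 49.7%, 44.8% and 44.1%. Of 6863 probes called, 3883 were higher in CMP and 2980 in MEP. The run block gave 10537 probes (5415 higher in MEP) over 17 arrays and 13748 (5837 and 7911) over 6, and the replicate block 12523 (7245 higher in MEP). Leaving out 1 array gave 1979 to 2581 probes higher in MEP.

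Of 139 called genes named above, 88 were called the same way under all of these fits and all 139 had the same sign in both runs. The medians of 14 of 25 lists were above 0, against 12 to 15 under the alternatives. Those that changed sign were the median of CDK inhibitors and D cyclins (-0.0586 at the 75th percentile), the median of B cell markers (-0.11 at the 75th percentile, -0.0214 in the authors' table), the median of T and NK cell markers (0.14 after the dim filter) and, with 1 array left out, the median of mast cell, basophil and eosinophil genes (-0.0493 to 0.94), the median of B cell markers (-0.0795 to 0.51) and the median of macrophage markers (-0.11 to 0.43). Among genes that were not called, Myb (-0.0790) and Myc (-0.16) changed sign at the 75th percentile, Ela2 (-0.0376) and Gp1ba (-0.0766) in the first run alone, and Myc, Gp1ba and Gp5 when 1 array was left out, with ranges of -0.10 to 0.35, -0.19 to 0.52 and -0.25 to 0.0918. Called genes that lost their call at the 75th percentile were Alas1, Gp9, Gstm1, Nfe2, Prtn3 and Trp53inp1, in the authors' table Maf and Ms4a2, and after normexp correction the same pair. Not all of the named genes that were not called were followed through the alternatives. Of those that were, the replicate block called Bcl11a (adjusted p = 0.0423), Lcn2 (0.0279), Mmp8 (0.0278), Ly6a (0.029) and Mki67 (0.029). Ltf was called only with the run block over 6 arrays (adjusted p = 0.0234). Further medians moved over 1.5 times, among them, at the 75th percentile, the median of erythroid and megakaryocytic transcription factors (-0.86), the median of replication and mitosis genes (-0.76), the median of Myc and nucleolar genes (-0.94) and the median of antioxidant genes (-0.93), and after normexp correction the median of sort markers (1.26), the median of stem cell and multipotency regulators (1.15), the median of megakaryocyte and platelet genes (1.22), the median of late erythroid markers (-2.45) and the median of predicted targets of MEP miRs (1.03). The median of early lymphoid genes was 1.51 without MEP replicate 3 and 1.21 after the dim filter, but 0.0282 at the 75th percentile, 0.0938 in the authors' table and 0.10 after normexp correction, against 0.23. The median of primary granule genes was 2.64 within the second run, against 1.71. The cause of these changes was not tested. The 3 pools of each population limit every test, and a probe above background on no array of a population has only a bound.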

Other observations

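The third MEP array was the highest of the MEP arrays for 10 of 15 early lymphoid genes and the lowest for 2, and was the lowest for 11 of 15 primary granule genes and the highest for 3. The same shares over all gene names were not counted, so these counts are not shown to be particular to the lists. Il7r, the interleukin 7 receptor, was at 6.05, 6.03 and 7.93 on MEP replicates 1, 2 and 3 and at 7.94, 7.25 and 8.47 in CMP (1.21, adjusted p = 0.134). Rag1, a subunit of the recombinase of lymphoid cells, was at 2.35, 2.27 and 6.16 in MEP, where only replicate 3 was above background, and at 4.40, 3.03 and 4.03 in CMP, with 1 array above background (0.23, adjusted p = 0.933). In MPP Il7r was at 9.38 ± 0.34 and Rag1 at 6.92 ± 0.37 (SD, n = 3). For Dntt, as given above, MEP replicate 3 was likewise the highest of the MEP arrays. That array was also scanned in another run and on another slide than the first 2, which cannot be told apart from a difference between pools.

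Of 2321 called gene names with several probes, 11 had another probe called in the opposite direction, some of them above background in 1 population or neither. One was Abcb1b, an efflux transporter of the ABC family. One of its probes was at 9.07, 8.96 and 9.56 in CMP and 4.59, 5.14 and 5.49 in MEP (4.12, adjusted p = 2.33e-07), and another at 9.08, 8.90 and 8.06 in CMP and 11.14, 10.81 and 10.05 in MEP (-1.99, adjusted p = 0.000787). Abcb1b was chosen after its values were seen, and which transcripts its probes read was not tested.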
